A study of Mus musculus with 4 samples.

Results

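Interferon-stimulated genes were followed in type II cells of the alveolar epithelium, which make and secrete lung surfactant. The set holds 37 genes chosen by symbol as antiviral and immune genes induced by interferons, and all 37 were found among the 25759 gene symbols of the count table. The study compared Sftpc-mTOR transgenic mice (mTOR Tg), which carry a conditional active mTOR transgene in the lung epithelium, with wild-type mice (WT). All mice were C57BL/6 and 14 weeks old. Each genotype had 2 libraries of total RNA. Sftpc is the gene of surfactant protein C, whose promoter drives transgenes in type II cells. The labels do not say whether WT mice carried a driver or received an inducer, whether a sample was 1 mouse or a pool, or how the cells were isolated. P-values therefore measure the spread between these samples.

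Interferons are secreted proteins that warn cells of virus. Type I interferons bind IFNAR1 and IFNAR2, and type III interferons, to which epithelia respond, bind IFNLR1 and IL10RB. Both activate the kinases JAK1 and TYK2, and the signal leads to the complex ISGF3, which contains STAT2 and IRF9. ISGF3 binds the interferon-stimulated response element (ISRE) in the promoters of antiviral genes. Type II interferon acts through IFNGR1 and IFNGR2, and genes that respond to it carry the gamma-activated sequence (GAS). mTOR is known to act on this system through translation, since its targets, the 4E-BP proteins, restrain translation of Irf7 mRNA, a step that RNA counts do not measure.

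The ISRE is shown first because ISGF3, named above, acts through it. RefSeq promoter windows on GRCm38.p6, from 250 bases before to 50 bases after the gene start, were matched by symbol for 27 of the 37 members. The ISRE was searched as GAAA, 2 free bases and GAAA on either strand, where the other strand reads TTTC, 2 free bases and TTTC. It stood in the windows of 14 of these 27 members (51.9%), against 1079 of all 27025 genes with a window (3.99%). The GAS, searched as TTC, 3 free bases and GAA and able to overlap the ISRE, stood in 7 of 27 members (25.9%), against 2582 of 27025 genes (9.55%). A match is a description of the letters and not of binding. Segments of members described below are shown 5′ to 3′ on the gene's strand, with the ISRE letters in capitals. They show that Isg15, Ifit1, Oas1a, Bst2 and Irgm1 hold more than 1 match, and the matches overlap in all of these but Ifit1. The sensor Ddx58 and the membrane protein gene Bst2 carry the same letters as the classical antiviral genes.
Isg15 (chr4:156200855-156200916, minus strand): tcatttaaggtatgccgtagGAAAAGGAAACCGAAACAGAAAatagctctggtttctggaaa
Ifit1 (chr19:34640765-34640833, plus strand): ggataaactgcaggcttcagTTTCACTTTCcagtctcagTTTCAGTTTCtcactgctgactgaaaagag
Oas1a (chr5:120907510-120907565, minus strand): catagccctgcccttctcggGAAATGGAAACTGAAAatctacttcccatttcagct
Bst2 (chr8:71537567-71537622, minus strand): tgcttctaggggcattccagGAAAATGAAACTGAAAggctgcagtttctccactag
Rsad2 (chr12:26456543-26456592, minus strand): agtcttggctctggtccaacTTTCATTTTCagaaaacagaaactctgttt
Ddx58 (chr4:40239794-40239843, minus strand): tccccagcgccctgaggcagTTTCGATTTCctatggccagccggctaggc
Irgm1 (chr11:48871415-48871470, minus strand): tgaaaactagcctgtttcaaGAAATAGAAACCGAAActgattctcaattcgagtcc

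The first matched base lay 78 bases before the start of Isg15, 104 before that of Ifit1, 20 before that of Oas1a, 130 before that of Bst2, 120 before that of Rsad2 and 30 before that of Irgm1, and 3 bases after that of Ddx58. These starts are those of the RefSeq windows. In the GENCODE M21 annotation Irgm1 spans 48861968 to 48871683 on the minus strand, so its match lies inside that gene. Irf1, a transcription factor gene induced by type II interferon, had no ISRE letters in its windows and held GAS letters, in capitals here, 90 bases before its start.
Irf1 (chr11:53769904-53769952, plus strand): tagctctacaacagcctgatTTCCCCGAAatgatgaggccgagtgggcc

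Library totals were 21972124 and 20273396 counts in mTOR Tg replicates 1 and 2, and 18146693 and 19018785 counts in WT replicates 1 and 2. Levels are given as normalised CPM, which are counts scaled to a common library size with TMM factors. Sftpc itself stood at 72565 and 73804 CPM in mTOR Tg and 75841 and 61011 CPM in WT. The 10 type II cell markers, Sftpc included, summed to 101564 and 127938 CPM of the raw total in mTOR Tg. In WT they summed to 123935 and 106169 CPM. Against the WT mean, 2 of the 10 were higher in mTOR Tg replicate 1 and 10 of 10 in replicate 2. Their median log2 deviations from WT were -0.38 and 0.13. The kinase gene Mtor was at 38.9 and 61.8 CPM in mTOR Tg and 56.8 and 56.7 CPM in WT, and no label says if reads of the transgene fall under this symbol. The library of mTOR Tg replicate 1 differed most from the rest: over all tested genes, Pearson's r of its log2 CPM with theirs was 0.951 to 0.954, and 0.983 to 0.988 among the remaining 3. Summed club cell markers (7 genes) reached 171341 CPM of its raw total, against 61307 CPM in mTOR Tg replicate 2 and 89777 and 96696 CPM in WT. The 8 ciliated cell markers summed to 2469 CPM in this library, against 1187 CPM in mTOR Tg replicate 2 and 1106 and 1321 CPM in WT. The 10 endothelial markers summed to 144 and 160 CPM in mTOR Tg and 209 and 217 CPM in WT, and the 8 type I cell markers to 1999 and 1723 CPM in mTOR Tg and 1603 and 1551 CPM in WT. The part of these cells in the results below was not tested. In bulk RNA, fewer cells of a type and less RNA per cell cannot be told apart.

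Some leukocyte marker genes were at or near 0, and others of the same lists had counts. The counts of Ptprc, which marks all leukocytes, were 0 and 3 in mTOR Tg and 0 and 3 in WT. The plasmacytoid dendritic cell gene Siglech, the T cell gene Cd3e and the macrophage gene C1qb had no count in any library, where 3 counts correspond to 0.137 to 0.165 CPM of the raw total. The 9 pan-leukocyte and T cell markers summed to 0.410 and 0.444 CPM in mTOR Tg and 0.220 and 0.421 CPM in WT, and 3 of the 9 were at 0 throughout. The 6 neutrophil markers, 2 of them at 0 throughout, summed to 2.37 and 1.18 CPM in mTOR Tg and 1.05 and 0.999 CPM in WT. The 5 B cell markers summed to 11.6 and 13.2 CPM in mTOR Tg and 10.7 and 9.41 CPM in WT. Of these, Ms4a1 had no count. The 1 B cell marker with enough counts to test had a log2 fold change of 0.34, with both mTOR Tg libraries above WT. The myeloid markers, dominated by lysozyme, which type II cells also express, summed to 15204 and 24462 CPM in mTOR Tg and 20291 and 16637 CPM in WT, with Adgre1 and C1qb at 0. Of the 11 myeloid markers found in the count table, 3 had enough counts to test.

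The baseline of the module was uneven, with most classical antiviral effectors at low levels. Levels can be compared between genes only per length, here as normalised CPM divided by the longest GENCODE M21 transcript in kilobases. On this scale Ifi27, a small mitochondrial membrane protein gene, was the highest, with a mean of 70.2 in mTOR Tg and 58.6 in WT. In the order of WT levels, Irf1 followed at 20.1 in mTOR Tg and 19.4 in WT. Ifi35, which encodes a leucine zipper protein, had 28.2 in mTOR Tg and 18.4 in WT, and Bst2 had 30.1 in mTOR Tg and 17.8 in WT. The effectors that mark an interferon response were far lower, with Isg15 at 2.48 in mTOR Tg and 2.44 in WT, Ifit1 at 1.56 in mTOR Tg and 1.32 in WT, and Rsad2 at 0.221 in mTOR Tg and 0.369 in WT. Oas2 and Mx1 were too low to test. Oas2, a sensor of double-stranded RNA, had 6 and 13 counts in mTOR Tg and 5 and 6 in WT. Mx1, a GTPase that blocks influenza virus in mice with an intact allele and is defective in most laboratory strains, had 7 and 9 counts in mTOR Tg and 9 and 9 in WT.

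**Figure D1:**
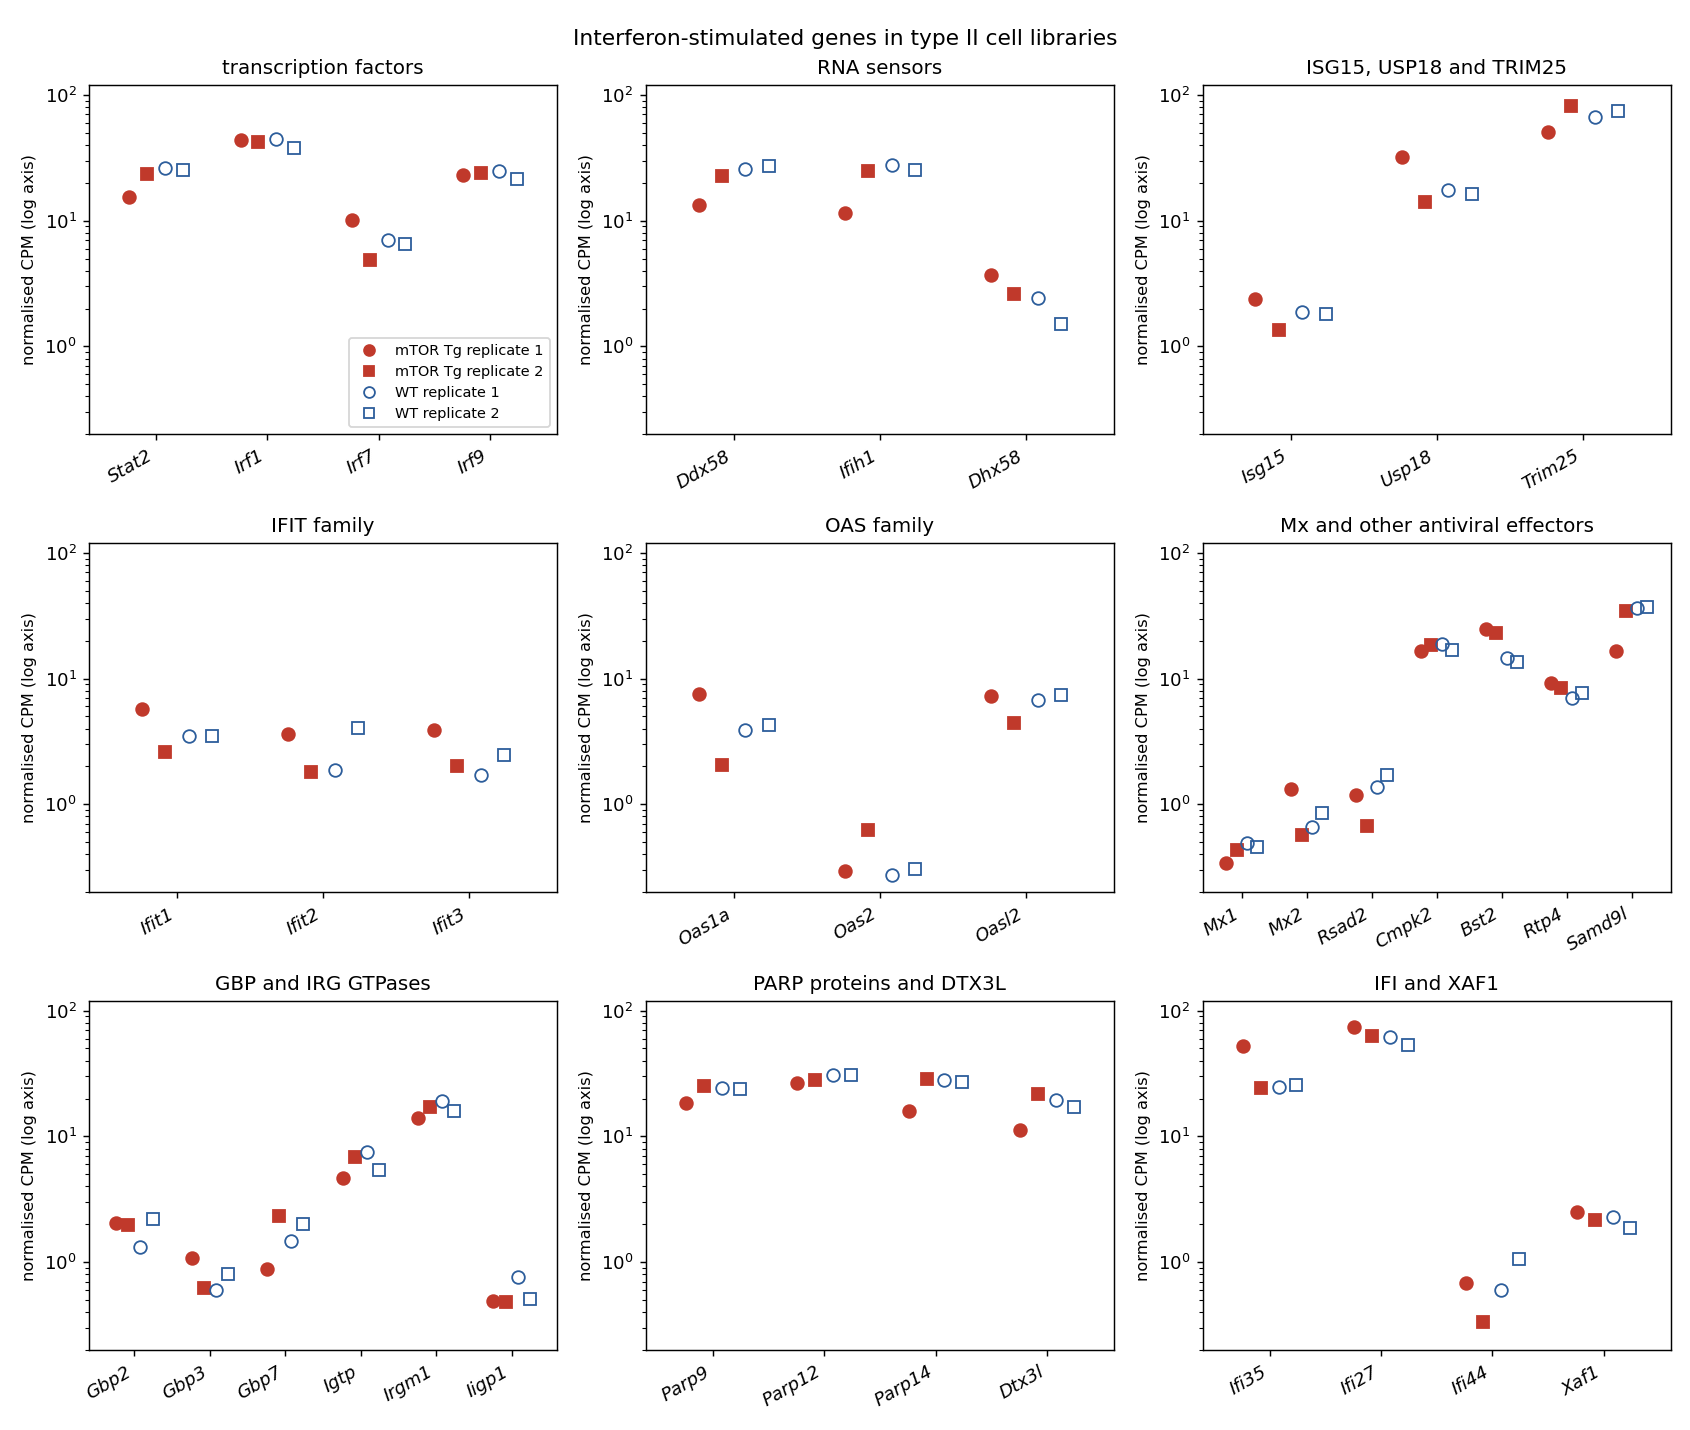
Normalised CPM (log axis) of the 37 interferon-stimulated genes in each library, in 9 panels by role; filled red symbols are mTOR Tg replicates 1 (circle) and 2 (square), open blue symbols WT replicates 1 and 2. For Bst2 the red symbols lie above the blue ones, while Usp18 and Oas1a are high in mTOR Tg replicate 1 and lowest in replicate 2.

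No member passed the test between genotypes. The edgeR quasi-likelihood test, adjusted over all 13306 genes by the Benjamini-Hochberg method, called 0 of the 35 tested members, against 0% of all genes, and the smallest adjusted p of a member was 0.860. At an unadjusted p under 0.05 there was 1 member, Bst2, where 2.46% of all genes (327) passed. DESeq2 called 0 members (0.0902% of all genes) and limma-voom 0 (0% of all genes). Leaving out mTOR Tg replicate 2 gave 16 members called, 9 higher and 7 lower in mTOR Tg, where 45.5% of all genes were called. Leaving out mTOR Tg replicate 1 gave 1 member, Bst2 (2.2% of all genes), and leaving out WT replicate 1 or WT replicate 2 gave 0 (0.0802% and 0.109% of all genes). In these fits the lone library is assumed to vary like the other group. Log2 fold changes of mTOR Tg over WT were positive in 17 members and negative in 18, against 50.9% positive over all genes, and ran from -0.74 for Rsad2 to 0.76 for Bst2. The median was -0.033, against 0.0087 over all genes, and it was 0.04 with either mTOR Tg replicate 2 or WT replicate 1 left out. The mTOR Tg pair was above the WT pair in 4 members (17.6% of all genes) and below it in 7 (17% of all genes), so 11 of 35 did not overlap, against 34.6% of all genes. With 2 samples against 2 an exact two-sided permutation test of a single value cannot go below p = 0.333.

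Of the 4 transcription factor genes, Irf1 and Irf9 had both mTOR Tg libraries within the range of the WT pair. Irf1 was at 43.5 and 42.6 CPM in mTOR Tg and 44.9 and 37.8 CPM in WT. Irf9, the DNA-binding partner in ISGF3, was at 23.3 and 23.9 CPM in mTOR Tg and 24.7 and 21.3 CPM in WT, and its exons overlap those of Rnf31 on the same strand. Stat2, the transactivating subunit of ISGF3, was at 15.6 and 23.5 CPM in mTOR Tg and 26.4 and 25.1 CPM in WT. Both mTOR Tg libraries were below WT, replicate 2 by little, and the log2 fold change was -0.40 (SE 0.26), or -0.13 without mTOR Tg replicate 1 and -0.72 without replicate 2. Irf7, which amplifies type I interferon production, was at 10.2 and 4.88 CPM in mTOR Tg and 7.03 and 6.47 CPM in WT. The mTOR Tg libraries thus lay on either side of the WT pair, and the log2 fold change of 0.16 (SE 0.39) was -0.47 without mTOR Tg replicate 1 and 0.59 without replicate 2.

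Among the cytosolic sensors of viral RNA, 2 were lowest in mTOR Tg replicate 1. Ddx58, which encodes RIG-I, was at 13.3 and 22.8 CPM in mTOR Tg and 25.8 and 27.1 CPM in WT. Ifih1, which encodes MDA5, was at 11.5 and 24.9 CPM in mTOR Tg and 27.6 and 25.5 CPM in WT. In both genes replicate 1 was far below the other libraries, and replicate 2 was just below WT. The log2 fold change of Ddx58 was -0.55 (SE 0.30), or -0.22 without mTOR Tg replicate 1 and -0.99 without replicate 2. That of Ifih1 was -0.54 (SE 0.38), or -0.088 without replicate 1 and -1.20 without replicate 2. Dhx58, the sensor LGP2 that tunes RIG-I and MDA5, was at 3.68 and 2.63 CPM in mTOR Tg and 2.42 and 1.52 CPM in WT, a log2 fold change of 0.68 (SE 0.38) that was 0.43 without mTOR Tg replicate 1, 1.05 without WT replicate 1 and 0.38 without WT replicate 2. Both mTOR Tg libraries lay above WT, though replicate 2 was closer to WT replicate 1 than the WT replicates were to each other. An antisense transcript, Dhx58os, overlaps Dhx58, and reads of the pair cannot be told apart unless the counts used strand, which no label states.

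ISG15 is a ubiquitin-like protein attached to targets during infection, USP18 removes it and also blocks the type I receptor, and TRIM25 is a ubiquitin ligase for RIG-I. Isg15 was at 2.40 and 1.34 CPM in mTOR Tg and 1.87 and 1.82 CPM in WT, from 49 and 28 counts in mTOR Tg and 34 and 36 in WT. Usp18 was at 32.3 and 14.2 CPM in mTOR Tg and 17.6 and 16.2 CPM in WT, a log2 fold change of 0.46 (SE 0.40) that was -0.25 without mTOR Tg replicate 1 and 0.94 without replicate 2. In both genes mTOR Tg replicate 1 was the highest and replicate 2 the lowest of the 4 libraries. Trim25 had the opposite order, at 50.5 and 81.3 CPM in mTOR Tg and 66.6 and 74.0 CPM in WT. Its log2 fold change of -0.09 (SE 0.28) was 0.21 without mTOR Tg replicate 1 and -0.48 without replicate 2.

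The IFIT proteins bind foreign RNA and block its translation. Ifit1 was at 5.69 and 2.59 CPM in mTOR Tg and 3.51 and 3.49 CPM in WT. Ifit3 was at 3.92 and 2.01 CPM in mTOR Tg and 1.70 and 2.48 CPM in WT, with a near-identical copy, Ifit3b, that can share its reads. Ifit2 was at 3.63 and 1.82 CPM in mTOR Tg and 1.87 and 4.04 CPM in WT. In Ifit1 and Ifit3 replicate 1 was the highest library, while in Ifit2 the WT pair was as far apart as the mTOR Tg pair. The OAS enzymes make the messenger that activates RNase L, which degrades RNA. Oas1a was at 7.51 and 2.06 CPM in mTOR Tg and 3.90 and 4.245 CPM in WT. That is 1.84 times the WT mean in replicate 1 and 0.506 times in replicate 2, so the log2 fold change of 0.23 (SE 0.59) was -0.98 without mTOR Tg replicate 1 and 0.88 without replicate 2. Oasl2, an OAS-like antiviral gene, was at 7.26 and 4.45 CPM in mTOR Tg and 6.70 and 7.38 CPM in WT. Oas1a has several close paralogues beside it, and reads may be shared among them.

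**Figure D2:**
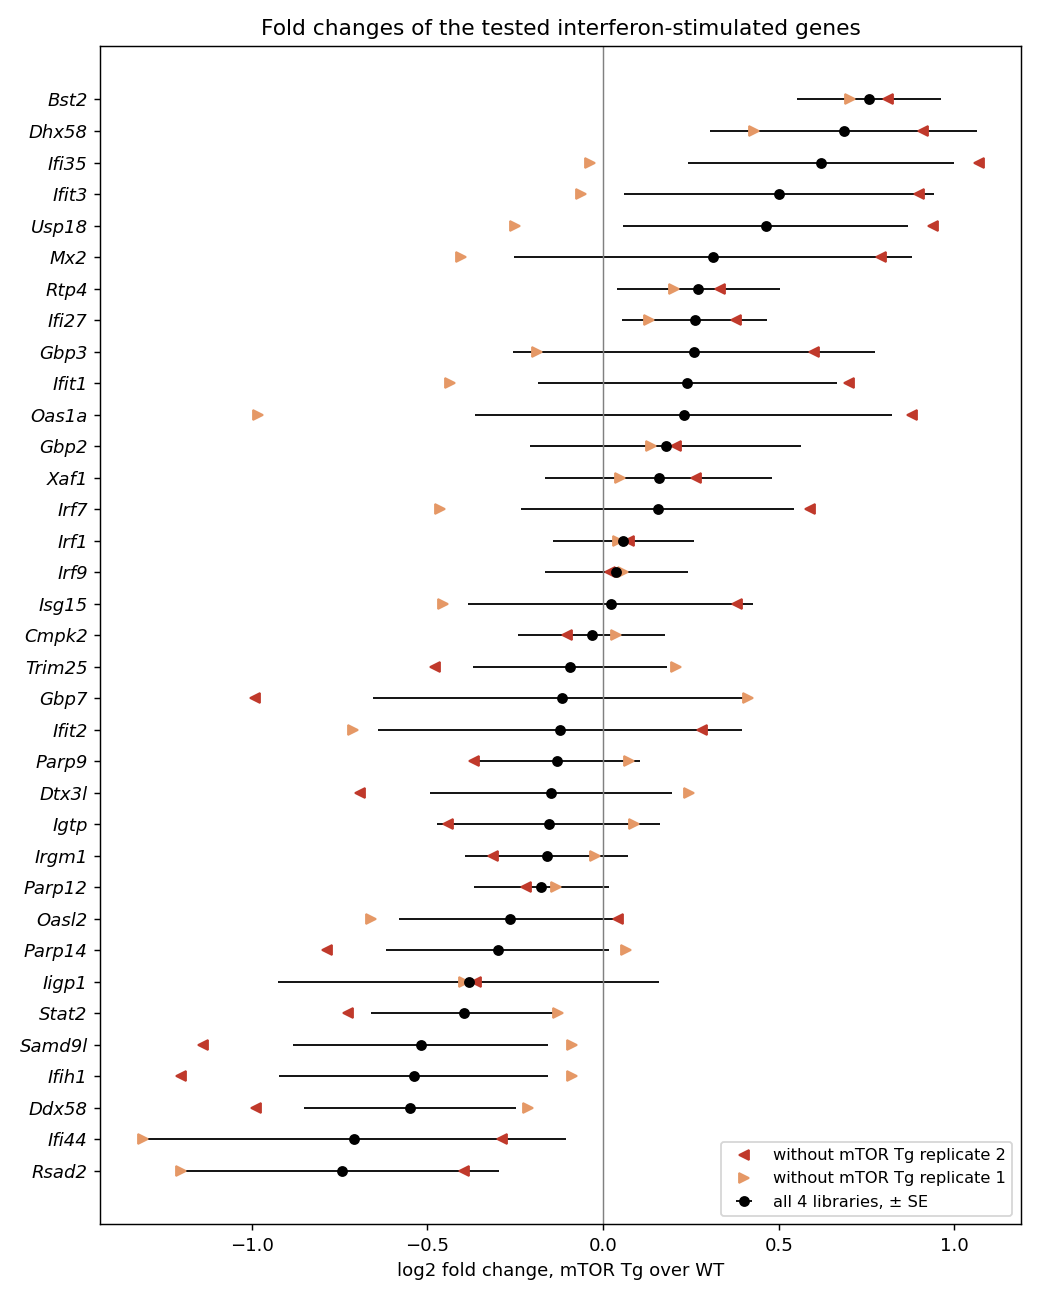
Log2 fold change of mTOR Tg over WT for the 35 tested members; black points with bars are the fit of all 4 libraries ± SE, dark red triangles the fit without mTOR Tg replicate 2 and light triangles that without replicate 1. For Oas1a the value is -0.98 without replicate 1 and 0.88 without replicate 2, while for Bst2 the values stay between 0.70 and 0.81.

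Bst2 had the highest log2 fold change of the members in the fit of all 4 libraries and was the only one whose mTOR Tg libraries were both over 1.5-fold above the WT mean. BST2, or tetherin, holds budding virions on the cell surface. Its gene (chromosome 8, 71534255 to 71537456, GRCm38) was at 24.7 and 22.9 CPM in mTOR Tg and 14.7 and 13.5 CPM in WT, from 503 and 479 counts in mTOR Tg and 267 and 267 in WT. Means were 23.8 ± 1.23 CPM in mTOR Tg and 14.1 ± 0.824 CPM in WT (SD, n = 2 each). The log2 fold change was 0.76 (SE 0.21), with an unadjusted p of 0.0116 and an adjusted p of 0.860 in the edgeR fit, so it did not pass. Over 11 alternatives with a test the fold change ran from 0.69 to 0.82 and the adjusted p from 0.000565 to 0.999986. It passed in 2 of them, without mTOR Tg replicate 1 (0.70, adjusted p = 0.0214 in edgeR) and without mTOR Tg replicate 2 (0.81, adjusted p = 0.000565), fits in which the lone mTOR Tg library is assumed to vary like the WT pair. With each library's trend on transcript length removed, described below, the log2 fold change was 0.40, below the 0.55 of Dhx58. Dhx58 was also above it without WT replicate 1, and 5 members, among them Ifi35, were above it without mTOR Tg replicate 2. Bst2 is also a marker of plasmacytoid dendritic cells, of which another marker, Siglech, had no count. The 7 markers of these cells, Bst2 included, summed to 35.4 and 43.0 CPM in mTOR Tg and 39.8 and 39.6 CPM in WT. The 6 markers without Bst2 summed to 12.5 and 19.4 CPM in mTOR Tg and 25.1 and 25.6 CPM in WT. Of the 5 markers tested, Bst2 included, 2 had positive and 3 negative log2 fold changes, from -0.80 to 0.90. Both mTOR Tg libraries were above WT in 2 of these 5 and below it in 1. The part of these cells in the level of Bst2 was not tested.

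The other antiviral effectors showed no shared direction. Rsad2, which encodes viperin, was at 1.18 and 0.670 CPM in mTOR Tg and 1.37 and 1.72 CPM in WT, with raw counts of 24 and 14 in mTOR Tg and 25 and 34 in WT. The log2 fold change was -0.74 (SE 0.45), or -1.20 without mTOR Tg replicate 1 and -0.40 without replicate 2. Cmpk2, the neighbouring gene of a mitochondrial nucleotide kinase, was at 16.7 and 18.4 CPM in mTOR Tg and 18.9 and 16.9 CPM in WT. Both mTOR Tg libraries lay below WT for Rsad2 and among the WT values or just below for Cmpk2. Samd9l, an antiproliferative and antiviral gene, was at 16.5 and 34.3 CPM in mTOR Tg and 36.1 and 36.8 CPM in WT, a log2 fold change of -0.52 (SE 0.36) that was -0.088 without mTOR Tg replicate 1 and -1.14 without replicate 2. Rtp4, which encodes a chaperone of receptors, was at 9.27 and 8.47 CPM in mTOR Tg and 6.97 and 7.73 CPM in WT, with no overlap and a log2 fold change of 0.27 (SE 0.23). Mx2, annotated as a polymorphic pseudogene in GENCODE M21, had 27 and 12 counts in mTOR Tg and 12 and 17 in WT.

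The GTPases of the GBP and IRG families attack the vacuoles of intracellular pathogens and respond mainly to type II interferon. Irgm1, which regulates the other IRG proteins, had the highest level per length among them, a mean of 4.10 in mTOR Tg and 4.58 in WT. It was at 14.1 and 17.3 CPM in mTOR Tg and 19.1 and 16.0 CPM in WT. Iigp1, an effector of the family, had 10 and 10 counts in mTOR Tg and 14 and 10 in WT, a difference not detectable at this depth, although its normalised CPM did not overlap. Igtp, whose exons overlap those of its relative Irgm2, was at 4.71 and 6.80 CPM in mTOR Tg and 7.47 and 5.36 CPM in WT. Gbp2, Gbp3 and Gbp7 lay at 0.604 to 2.35 CPM over the 4 libraries with overlapping groups. None of the 6 genes had an absolute log2 fold change above 0.38, the value of Iigp1.

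PARP9 and DTX3L act as a complex in ADP-ribosylation and ubiquitin transfer, and their genes lie head to head on chromosome 16 with overlapping exons. Dtx3l was at 11.3 and 21.7 CPM in mTOR Tg and 19.4 and 17.2 CPM in WT, and Parp9 at 18.6 and 25.2 CPM in mTOR Tg and 24.2 and 23.8 CPM in WT. Parp14, a regulator of macrophage and interferon signalling, was at 15.9 and 28.8 CPM in mTOR Tg and 28.2 and 26.9 CPM in WT. In these 3 genes mTOR Tg replicate 1 was the lowest library and replicate 2 the highest. Parp12, an antiviral ADP-ribosyltransferase, was at 26.4 and 28.1 CPM in mTOR Tg and 30.8 and 30.8 CPM in WT, a log2 fold change of -0.18 (SE 0.19). All 4 log2 fold changes of this group were negative, from -0.30 to -0.13, and 0 were called.

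Ifi27 was at 74.5 and 62.7 CPM in mTOR Tg and 61.3 and 53.2 CPM in WT, and its groups did not overlap. The log2 fold change was 0.26 (SE 0.21), and -0.062 once the trend of each library on transcript length was removed. Ifi35 was at 52.5 and 24.4 CPM in mTOR Tg and 24.5 and 25.5 CPM in WT, so that replicate 1 stood at 2.10 times the WT mean and replicate 2 at 0.975 times. Its log2 fold change of 0.62 (SE 0.38) was -0.038 without mTOR Tg replicate 1 and 1.07 without replicate 2. Ifi44, whose product restrains virus growth, had 14 and 7 counts in mTOR Tg and 11 and 21 in WT. Xaf1, which encodes an antagonist of an inhibitor of apoptosis, was at 2.502 and 2.155 CPM in mTOR Tg and 2.306 and 1.870 CPM in WT.

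How often the mTOR Tg libraries lay on opposite sides of the WT pair was near the share over all genes. In 7 members mTOR Tg replicate 1 lay above both WT libraries and replicate 2 below both (15.1% of all genes), namely Irf7, Isg15, Usp18, Ifit1, Oas1a, Mx2 and Ifi35. In 5 the order was the reverse (14.3% of all genes), namely Trim25, Gbp7, Parp9, Parp14 and Dtx3l. The shares over 1.5-fold from the WT mean were not all near those over all genes, and this was not tested. Replicate 1 was over 1.5-fold above that mean in 10 of 35 members, a larger share than the 15% of all genes. It was over 1.5-fold below in 7 of 35 (20.8% of all genes). Replicate 2 was over 1.5-fold above in 1 of 35, Bst2 (3.89% of all genes). It was over 1.5-fold below in 5 of 35, a larger share than the 4.73% of all genes. These were Ifit2, Oas1a, Oasl2, Rsad2 and Ifi44. The WT counts of those 5 were between 11 and 146 in a library. Club cell markers were also highest in mTOR Tg replicate 1 and lowest in replicate 2, and their part in the result was not tested.

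Transcript length moved with the split in mTOR Tg replicate 1. Among all tested genes, those in the shortest quartile of length lay a median log2 of 0.43 above the WT mean in this library and those in the longest quartile 0.52 below it (-0.52). Members followed that order. The 10 members in the shortest quartile, among them Ifi35, Usp18, Ifit3, Oas1a and Bst2, had a median of 0.59, with 9 of 10 above the WT mean. The 6 in the longest quartile, Ifih1, Trim25, Samd9l, Gbp7, Parp14 and Dtx3l, had a median of -0.84, with 0 of 6 above. In mTOR Tg replicate 2 the same 2 sets had medians of 0.0086 and 0.14, and all genes of those quartiles -0.0016 and 0.0018. Across the 35 members, Pearson's r between log2 length and the deviation from WT was -0.73 in replicate 1 and -0.10 in replicate 2, and Spearman's rho was -0.80 and -0.015. Across 13137 genes with a length Pearson's r was -0.51 in replicate 1 and -0.015 in replicate 2, a description over genes that share their libraries.

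**Figure D3:**
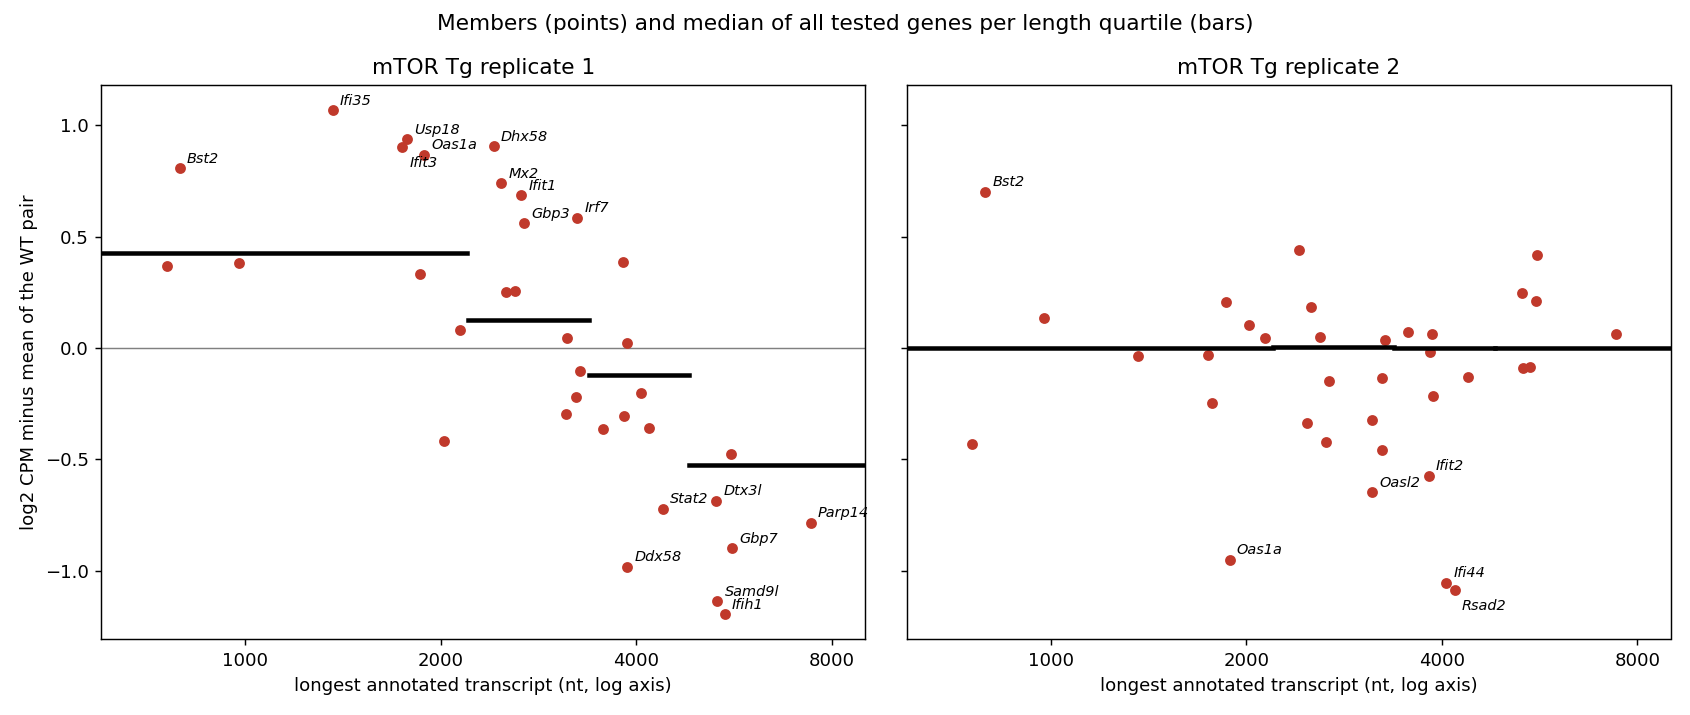
Log2 CPM minus the mean of the WT pair against the length of the longest annotated transcript (nt, log axis), for mTOR Tg replicate 1 (left) and replicate 2 (right); red points are the 35 tested members, black bars the median of all tested genes in each length quartile, cut at the axis ends. In replicate 1 the bars step down from 0.43 to -0.52 and the members follow, while in replicate 2 the bars lie at 0 and Bst2 is the highest member.

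After the trend of each library on length was removed, the members' median against WT was -0.10 in replicate 1 of mTOR Tg (-0.040 over all genes with a length) and -0.045 in its replicate 2 (0.0036 over those genes). Members were then above the WT mean in 14 of 35 in replicate 1 and 15 of 35 in replicate 2. Over all genes with a length, 6125 of 13137 were above it in replicate 1 and 6662 of 13137 in replicate 2. Usp18 lay 0.52 above WT in replicate 1 and 0.26 below it in replicate 2 (-0.26), and Oas1a 0.48 above and 0.96 below (-0.96). Ddx58 remained at -0.92 and -0.21 and Ifih1 at -0.84 and -0.073 in replicates 1 and 2. Ddx58 thus stayed below both WT libraries in both, while replicate 2 of Ifih1 lay within the WT pair. Bst2 lay only 0.11 above WT in replicate 1 and 0.69 above in replicate 2. Its log2 fold change was 0.40 on this scale, against 0.76 without the correction.

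Interferon genes themselves were nearly without counts, and no gene upstream of the module was called. Of 20 genes of type I, II and III interferons in the table, 19 had no count in any library, including Ifnb1 and Ifng, and the exception, Ifnz, had 0 and 2 counts in mTOR Tg and 1 and 1 in WT. All 9 receptor and kinase genes listed were tested, and 0 were called (0% of all genes), with a median log2 fold change of -0.061, against 0.0087 over all genes. Ifnar1 was at 29.4 and 35.6 CPM in mTOR Tg and 32.4 and 35.7 CPM in WT, and Ifnar2 at 44.4 and 44.9 CPM in mTOR Tg and 44.8 and 37.9 CPM in WT. Ifnlr1, the type III receptor chain of epithelia, was at 15.9 and 16.4 CPM in mTOR Tg and 17.7 and 18.1 CPM in WT. The groups overlapped for Ifnar1 and Ifnar2, and both mTOR Tg libraries were below WT for Ifnlr1.

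For type II interferon, Ifngr1 was at 31.9 and 36.8 CPM in mTOR Tg and 37.7 and 33.9 CPM in WT. Ifngr2, its signalling chain, was at 19.8 and 21.5 CPM in mTOR Tg and 16.3 and 16.0 CPM in WT, a log2 fold change of 0.35 (SE 0.20, unadjusted p = 0.136 in edgeR, adjusted over all genes 0.860). Jak1 was at 61.2 and 99.8 CPM in mTOR Tg and 100.03 and 97.8 CPM in WT, low in mTOR Tg replicate 1 only, and Tyk2 was at 31.9 and 38.3 CPM in mTOR Tg and 29.7 and 32.3 CPM in WT.

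Of 16 sensors, adaptors and kinases that lead to interferon production, 11 were tested and 0 were called, with a median log2 fold change of 0.053. Over all genes 0% were called and the median was 0.0087. Mavs, the adaptor of RIG-I and MDA5, was at 28.7 and 27.7 CPM in mTOR Tg and 28.2 and 26.2 CPM in WT. Irf3, the factor that starts interferon transcription, was at 79.6 and 52.1 CPM in mTOR Tg and 51.8 and 49.7 CPM in WT. Tmem173, which encodes STING, was at 22.1 and 14.4 CPM in mTOR Tg and 15.9 and 17.3 CPM in WT. Tlr3, the endosomal sensor of double-stranded RNA, was at 5.20 and 10.01 CPM in mTOR Tg and 7.96 and 8.59 CPM in WT. For Irf3 and Tmem173 replicate 1 was the highest library and for Tlr3 the lowest, while Mavs differed little over the 4 libraries. Myd88, the adaptor of Toll-like receptors, was at 71.0 and 65.5 CPM in mTOR Tg and 61.8 and 54.4 CPM in WT. Zbp1, a sensor of left-handed nucleic acid, had the largest log2 fold change of this list at 0.78 (SE 0.60), from 32 and 13 counts in mTOR Tg and 13 and 11 in WT. The sensors Tlr7, Tlr9 and Aim2 had no count in any library.

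All 14 negative regulators were tested, and 10 had positive and 4 negative log2 fold changes, with a median of 0.23 and 0 called. Over all genes 50.9% were positive, the median was 0.0087 and 0% were called. The libraries of mTOR Tg differed here. Replicate 1 held the 14 regulators at a median log2 deviation of 0.29 from the WT mean, 9 of them above it. For replicate 2 this median lay at -0.0019, with 7 of 14 above. The raised median of the list thus had no counterpart in replicate 2. Socs3, a feedback inhibitor of JAK signalling induced mainly by cytokines of the interleukin 6 family, was at 162 and 190 CPM in mTOR Tg and 145 and 117 CPM in WT. Its groups did not overlap, and the log2 fold change was 0.42 (SE 0.22, unadjusted p = 0.102 in edgeR, adjusted over all genes 0.860). Ptpn6, the phosphatase SHP-1, was at 33.5 and 28.0 CPM in mTOR Tg and 23.99 and 24.6 CPM in WT, and Ptpn2, a phosphatase of JAK1, at 23.1 and 23.5 CPM in mTOR Tg and 18.3 and 19.8 CPM in WT. Neither overlapped between groups. Over the list 4 genes had both mTOR Tg libraries above WT and 2, Pias1 and Adar, had both below, against 34.6% of all genes without overlap. Pias1, an inhibitor of STAT signalling, was at 34.4 and 51.2 CPM in mTOR Tg and 52.5 and 52.4 CPM in WT, and Adar, an RNA-editing enzyme that limits sensing of self RNA, at 31.7 and 34.4 CPM in mTOR Tg and 36.8 and 35.8 CPM in WT. Socs1, the feedback inhibitor of interferon signalling itself, had 25 and 15 counts in mTOR Tg and 18 and 16 in WT.

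Of 74 other interferon-stimulated genes listed, 57 were tested, with 33 positive and 24 negative log2 fold changes, a median of 0.080 and 0 called. For all tested genes these values were 50.9% positive, a median of 0.0087 and 0% called. Ifitm1, a membrane protein that blocks viral entry, was at 23.1 and 11.9 CPM in mTOR Tg and 5.65 and 8.59 CPM in WT, a log2 fold change of 1.30 (SE 0.40, unadjusted p = 0.0200 in edgeR, adjusted over all genes 0.860). Replicate 1 of mTOR Tg stood at 3.24 times the WT mean and replicate 2 at 1.67 times. The longest Ifitm1 transcript has 882 nt, in the shortest length quartile, where all genes lay a median log2 of 0.43 above WT in replicate 1. The part of length in the Ifitm1 values was not tested. Lgals3bp, a secreted glycoprotein, was at 115 and 92.9 CPM in mTOR Tg and 68.5 and 73.9 CPM in WT, a log2 fold change of 0.54 (SE 0.21, unadjusted p = 0.0410). The mTOR Tg pair exceeded the WT pair in both genes, as it did in 11 of the 57 and in 17.6% of all genes. Ifitm1 and Lgals3bp were the only ones of the 57 with an unadjusted p under 0.05 in edgeR, a level that 2.46% of all genes passed. Ifitm3, a close relative of Ifitm1, was at 57.5 and 21.4 CPM in mTOR Tg and 25.4 and 29.1 CPM in WT, with replicate 2 below both WT libraries.

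Trim34a, a member of the TRIM family, was at 5.99 and 6.18 CPM in mTOR Tg and 10.5 and 7.48 CPM in WT, a log2 fold change of -0.57 (SE 0.27). Eif2ak2, the kinase PKR that halts translation on double-stranded RNA, was at 10.2 and 20.8 CPM in mTOR Tg and 22.6 and 19.4 CPM in WT. Psmb8, a subunit of the immunoproteasome, was at 33.4 and 26.3 CPM in mTOR Tg and 25.1 and 23.2 CPM in WT. Cxcl10, a chemokine that interferon induces strongly in many cells, was too low to test, with 11 and 9 counts in mTOR Tg and 5 and 4 in WT. Cxcl9, Cxcl11 and Ccl5 had 0 to 2 counts in any library. Gbp4, a GTPase of the GBP family, had 0 and 10 counts in mTOR Tg and 14 and 13 in WT, and its fitted log2 fold change of -1.53 (SE 1.02) depends on the library at 0.

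**Figure D4:**
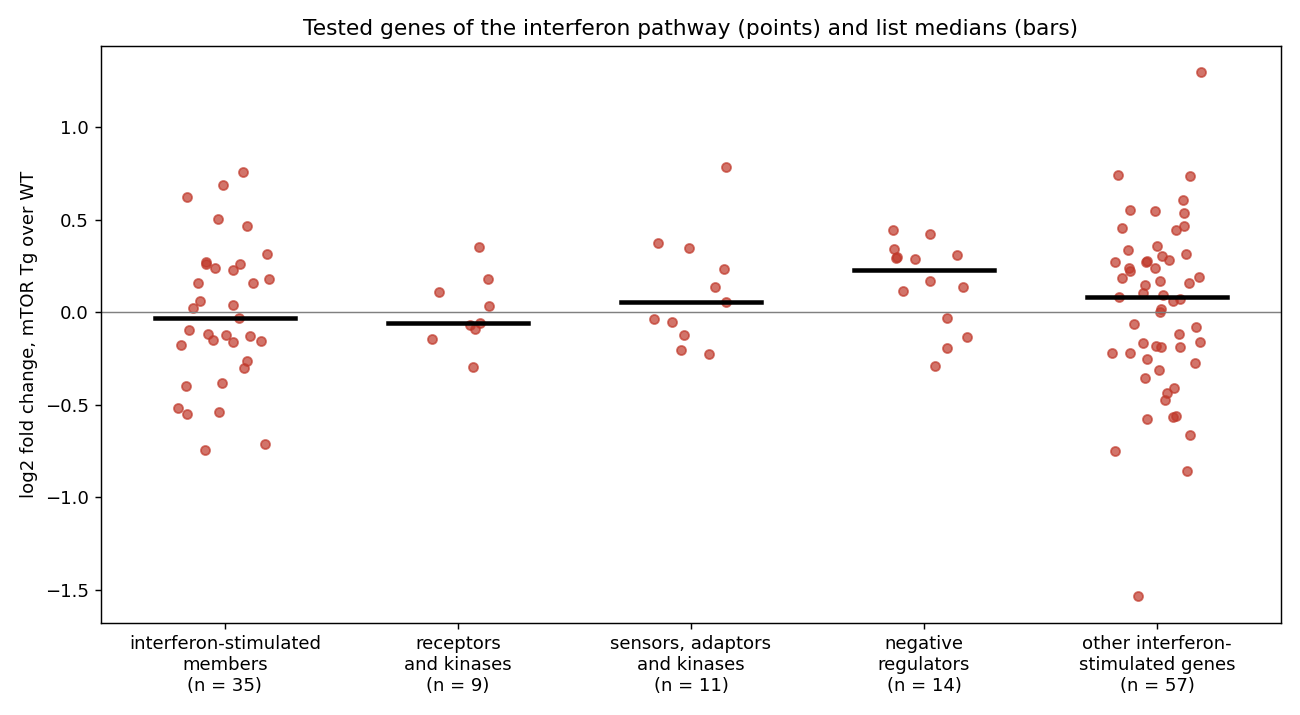
Log2 fold change of mTOR Tg over WT for tested genes of the interferon-stimulated set (35) and of 4 related lists (9, 11, 14 and 57 genes); each point is a gene, each black bar the median of its list. All medians lie between -0.061 and 0.23, and the highest point is Ifitm1 at 1.30 and the lowest Gbp4 at -1.53.

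The members were last set side by side by promoter sequence, with no test. The 14 tested members with ISRE letters had a median log2 fold change of -0.048, with 7 positive, and the 13 without them a median of -0.094, with 5 positive. The 8 tested members with no window had a median of 0.27, with 5 positive. Median transcript length was 2669 nt with the letters, 3274 nt without them and 2444 nt with no window. The sets are thus not matched for length, which the values of mTOR Tg replicate 1 followed. Against the WT mean, those with the letters lay at a median of -0.027 in mTOR Tg replicate 1 and -0.11 in replicate 2, and those without at 0.022 and -0.037. Both sets held genes high in replicate 1, such as Ifit1 and Ifi35, and genes low in it, such as Ddx58 and Samd9l.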

How the data were processed

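The authors deposited 1 table of raw counts, whole numbers with a row for each symbol and a column for each of 4 libraries, and columns were tied to samples through the labels. HISAT2, edgeR and the build mm10 are named in the submitters' processing notes. Not given in the sources used here: counting program, annotation, strandedness and versions. Counts were tested with edgeR 4.0.16 in R 4.3.3: filterByExpr by group (minimum count 10) kept 13306 genes holding 99.9% of counts, TMM factors ran from 0.928 to 1.04, and glmQLFTest compared mTOR Tg with WT with no covariate. The threshold was an adjusted p of 0.05. A standard error is the absolute log2 fold change divided by the square root of F. Log2 CPM used a prior count of 2. Floors (3 counts) cover counting error only.

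The members and lists were chosen with earlier results of these data known. Named were all members by role, the receptors and regulators fixed by name, and list genes of smallest p; Ifnb1, Ifng, Ifnz, Ms4a1, Pias1, Adar, Gbp4, Ccl5, Cxcl9, Cxcl11, Tlr7, Tlr9 and Aim2 were named after their values were seen. A gene of the lists is not reported here and was left out of their counts. Positions and lengths come from GENCODE M21 on GRCm38 (mm10), promoter sequences from RefSeq on GRCm38.p6. For 10 members no promoter window was used: Dhx58, Usp18, Oas2, Mx1, Mx2, Rtp4, Iigp1, Parp9, Parp14 and Ifi27. Alternatives were other scaling, other filters, DESeq2 1.42.0, limma-voom (limma 3.58.1), leaving out each library, a replicate block, and removal of each library's lowess trend on transcript length.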

Additional observations from a re-analysis of the deposited data

How the results depend on the processing

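The count of members called stayed at 0 with DESeq2 size factors, library size only, no filter, a stricter filter, DESeq2, limma-voom and the replicate block; removal of the length trend gives values with no test. Depth limits Iigp1, Gbp3 and Ifi44, with 7 to 22 counts in a library. With 1 library left out it ran from 0 to 16. The 16 came without mTOR Tg replicate 2, where 45.5% of all genes were called, and 1 (Bst2) without mTOR Tg replicate 1, where 2.2% were called; a lone library is assumed to vary like the other group. Genes called over the whole table were 0 in the reported fit, 12 in DESeq2, 37 with the replicate block and 11 to 6200 with 1 library left out (299 without mTOR Tg replicate 1, 6200 without replicate 2). Pathway genes called ran from 0 to 36 with 1 library left out. Whether equal replicate numbers mean paired libraries is not stated in the labels. Same-numbered deviations from the group means correlated at 0.071 over all genes. This value cannot decide the question, because it rests on 1 difference between libraries per group. The median member log2 fold change ran from -0.050 to 0.044 with 1 library left out. The members' median in mTOR Tg replicate 1 was 0.046, -0.092 with library size only and -0.10 with the length trend removed. Library size only moved the median of all genes to -0.054 and the members above 0 to 14.

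Of 416 member values under alternatives, 380 kept their direction, and 36 over 22 members reversed, 25 of them with 1 library left out. The cause was not tested. With library size only the log2 fold change was -0.0032 for Irf1, -0.022 for Irf9 and -0.057 for Isg15. With limma-voom it was -0.041 for Isg15 and -0.055 for Oas1a, and with the replicate block -0.021 for Isg15. With the length trend removed it was -0.062 for Ifi27, -0.10 for Irf1, -0.39 for Isg15, -0.24 for Oas1a and 0.061 for Trim25. With 1 library left out, the log2 fold changes that changed sign ran from -0.062 to 0.18 for Irf1, -0.47 to 0.59 for Irf7, -0.065 to 0.15 for Irf9, -0.46 to 0.38 for Isg15, -0.25 to 0.94 for Usp18, -0.48 to 0.21 for Trim25, -0.44 to 0.70 for Ifit1. They ran from -0.71 to 0.54 for Ifit2, -0.063 to 0.90 for Ifit3, -0.98 to 0.88 for Oas1a, -0.66 to 0.044 for Oasl2, -0.40 to 0.79 for Mx2, -0.11 to 0.048 for Cmpk2, -0.15 to 0.61 for Gbp2, and from -0.19 to 0.60 for Gbp3, -0.99 to 0.41 for Gbp7, -0.44 to 0.10 for Igtp, -0.37 to 0.073 for Parp9, -0.79 to 0.064 for Parp14, -0.69 to 0.24 for Dtx3l, -0.038 to 1.07 for Ifi35.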
